A study of Mus musculus with 4 samples.

Results

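Ckb, Ckmt2, Slc6a8, Gatm, Atp2a2, Ryr2 and Gk are the 7 genes described here, of 32285 genes in the deposited matrices. They were chosen by symbol, and all 7 symbols had a row. Together they stand for the creatine, calcium and glycerol futile cycles in adipocytes. They were measured in naïve WT mice by single-nucleus sequencing of the floating, adipocyte-enriched layer of digested tissue. The thymi came from C57/BL6 mice on standard chow, and strain and diet are not given separately for the fat. One RNA library came from 6 pooled thymi of 4-month males. The other came from epigonadal white fat of 4-month males, and the sources used here do not give the number of animals in it. A chromatin library, which maps open DNA with the Tn5 transposase, came from 16 pooled thymi of 6-month females. The study looked at heterogeneity and metabolic signatures of thymic adipocytes. With 1 library per group there is no replicate check. No test between groups was possible, and every interval below is a 95% interval that covers counting error only.

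A futile cycle spends ATP and gives back its starting material, so that the energy leaves as heat. In the creatine cycle, creatine is taken up by the transporter Slc6a8 or made by Gatm and Gamt. It is phosphorylated by a creatine kinase, the cytosolic Ckb or the mitochondrial Ckmt2, and phosphocreatine is hydrolysed again, a step attributed to the phosphatase Alpl. In the calcium cycle, the pump Atp2a2 (SERCA2) moves calcium into the endoplasmic reticulum and the release channels Ryr2 and the Itpr family let it out. In the glycerol cycle, lipolysis frees glycerol and fatty acids from triglyceride, and glycerol kinase (Gk) phosphorylates glycerol so that it can be esterified again. These cycles are best known from brown and beige fat, beside heat production by Ucp1, and white adipocytes are known for low glycerol kinase.

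In the GRCm38 build used by the chromatin data, Ckb (ENSMUSG00000001270) lies at chr12:111669355-111672338 and Ckmt2 (ENSMUSG00000021622) at chr13:91853386-91876923. Slc6a8 (ENSMUSG00000019558) lies at chrX:73673133-73682502 and Gatm (ENSMUSG00000027199) at chr2:122594473-122611277. Atp2a2 (ENSMUSG00000029467) lies at chr5:122453513-122502225, Ryr2 (ENSMUSG00000021313) at chr13:11553099-12106945 and Gk (ENSMUSG00000025059) at chrX:85701937-85776819. RefSeq promoter sequences of that build (GRCm38.p6) were matched for 5 of the 7 genes, all on the minus strand. The entries for Atp2a2 and Slc6a8 were missing. The 250 bases before the start are shown for Ckb and Gk, the members past 2-fold in labelled nuclei, and for Ckmt2, whose start had the fewest chromatin fragments. Capitals mark 3 motifs of core promoters, searched on both strands. The TATA box was searched as the letters TATAAA. The next was the pentamer CCAAT, which reads ATTGG on the other strand. The last was the GC box, with the letters GGGCGG on one strand and CCGCCC on the other.
Ckb (chr12:111672339-111672588): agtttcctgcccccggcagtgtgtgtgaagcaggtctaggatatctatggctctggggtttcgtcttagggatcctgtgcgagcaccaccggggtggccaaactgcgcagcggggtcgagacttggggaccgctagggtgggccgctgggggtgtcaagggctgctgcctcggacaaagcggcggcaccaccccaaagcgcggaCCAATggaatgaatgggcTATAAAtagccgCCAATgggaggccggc
Gk (chrX:85776820-85777069): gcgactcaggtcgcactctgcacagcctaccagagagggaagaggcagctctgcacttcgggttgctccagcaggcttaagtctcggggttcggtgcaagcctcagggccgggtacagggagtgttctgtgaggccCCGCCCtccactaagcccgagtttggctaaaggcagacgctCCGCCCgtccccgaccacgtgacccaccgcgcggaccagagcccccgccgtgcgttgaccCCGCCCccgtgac
Ckmt2 (chr13:91876886-91877135): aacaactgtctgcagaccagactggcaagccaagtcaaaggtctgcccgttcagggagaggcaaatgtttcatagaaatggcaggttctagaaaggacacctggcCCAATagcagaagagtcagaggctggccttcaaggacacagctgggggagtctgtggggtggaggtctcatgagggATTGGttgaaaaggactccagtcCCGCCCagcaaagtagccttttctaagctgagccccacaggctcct
The Ckb window held a TATA box beginning 28 bases before the start and a CCAAT box on either side of it. Of all 27025 promoters of the same length in the table (250 bases before to 50 after the start), 14.2% held TATAAA and 37.9% held CCAAT. The Gk window held 3 GC boxes, a motif found in 35.9% of promoters, and 1 lower-case E-box (CACGTG), found in 7.24%. The Ckmt2 window held 2 CCAAT boxes and 1 GC box. CpG dinucleotides numbered 22 in the Ckb window of 300 bases, 23 in that of Gk and 4 in that of Ckmt2. The extended site of estrogen-related receptors (TCAAGGTCA, found in 0.407% of promoters) was not among the letters of any of the 5 windows, and neither was the cAMP response element (TGACGTCA, 1.88%). These are letter matches only. The start in the promoter table (chr13, 91876885) was used for Ckmt2, and its window overlaps the end of the gene span given above.

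The thymic matrix held 22600 barcodes, of which the authors labelled 365 (534972 UMIs of nuclear-encoded genes, where a UMI is 1 counted RNA molecule). The epigonadal matrix held 5043 barcodes, of which 1564 were labelled (2157889 UMIs). Barcode sequences shared by the matrices numbered 147, and 0 were labelled in both. The labels were checked against cell-type markers. Ad Ia and Ad Ib, called Ad I together, carried adipocyte markers: in thymic Ad I the perilipin Plin1 was at 881 UMIs per 1000000 nuclear-encoded UMIs (CPM) and in epigonadal Ad I at 618. Nuclei labelled Ad IIa had a mixed profile in the thymus. There Plin1 and the adipokine Adipoq each had 4 UMIs (9.96 CPM) in 231 nuclei, while 9 endothelial markers summed to 9045 CPM, against 1244 CPM in thymic Ad I and 6722 CPM in epigonadal Ad IIa. Of the 12 genes of the adipocyte list, Fabp4 (8860 and 2833 CPM), Cd36 (6125 and 1895 CPM) and Pparg (2371 and 1417 CPM) were higher in thymic Ad IIa than in thymic Ad I. The others were lower, such as Ghr (399 and 9916 CPM), Acsl1 (67.3 and 1972 CPM) and Cidec (19.9 and 613 CPM). In epigonadal Ad IIa, Adipoq was at 449 CPM and Plin1 at 97.0 CPM. Thymic Ad IIb and Ad IIc had 0 Plin1 UMIs and 1 and 3 Adipoq UMIs. Fabp4 was at 5255 and 16309.5 CPM in them, and Cd36 at 5811 and 4736 CPM. Ad IIa made up 63.3% of labelled thymic nuclei and 37.7% of labelled epigonadal nuclei, and Ad IIc 9.32% and 42.1%, so the sum over all labelled nuclei mixes the labels differently in the libraries. Mitochondrial RNA took 13.2% of UMIs in labelled thymic nuclei and 5.22% in labelled epigonadal nuclei. The part of the label mix and of mitochondrial RNA in the ratios below was not tested.

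Over all labelled nuclei, 4 of the 7 genes reached 10 UMIs over both libraries. Of these, 0 were at least 2-fold higher in the thymic library, where 8.12% of 11306 genes were, and 1 (Ckb) was at least 2-fold lower, where 20.2% of genes were. In Ad I nuclei, 2 genes reached 10 UMIs. Gk was at least 2-fold higher, beside 15.2% of 5346 genes, and 0 were lower, beside 17.0% of genes. In nuclei labelled Ad IIa, 4 genes reached 10 UMIs, 0 were higher, beside 5.44% of 9775 genes, and 1 (Ckb) was lower, beside 16.2% of genes. With 2 to 4 genes at that minimum, none of these counts stands apart from its background, and they are read as a description of single genes.

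**Figure D1:**
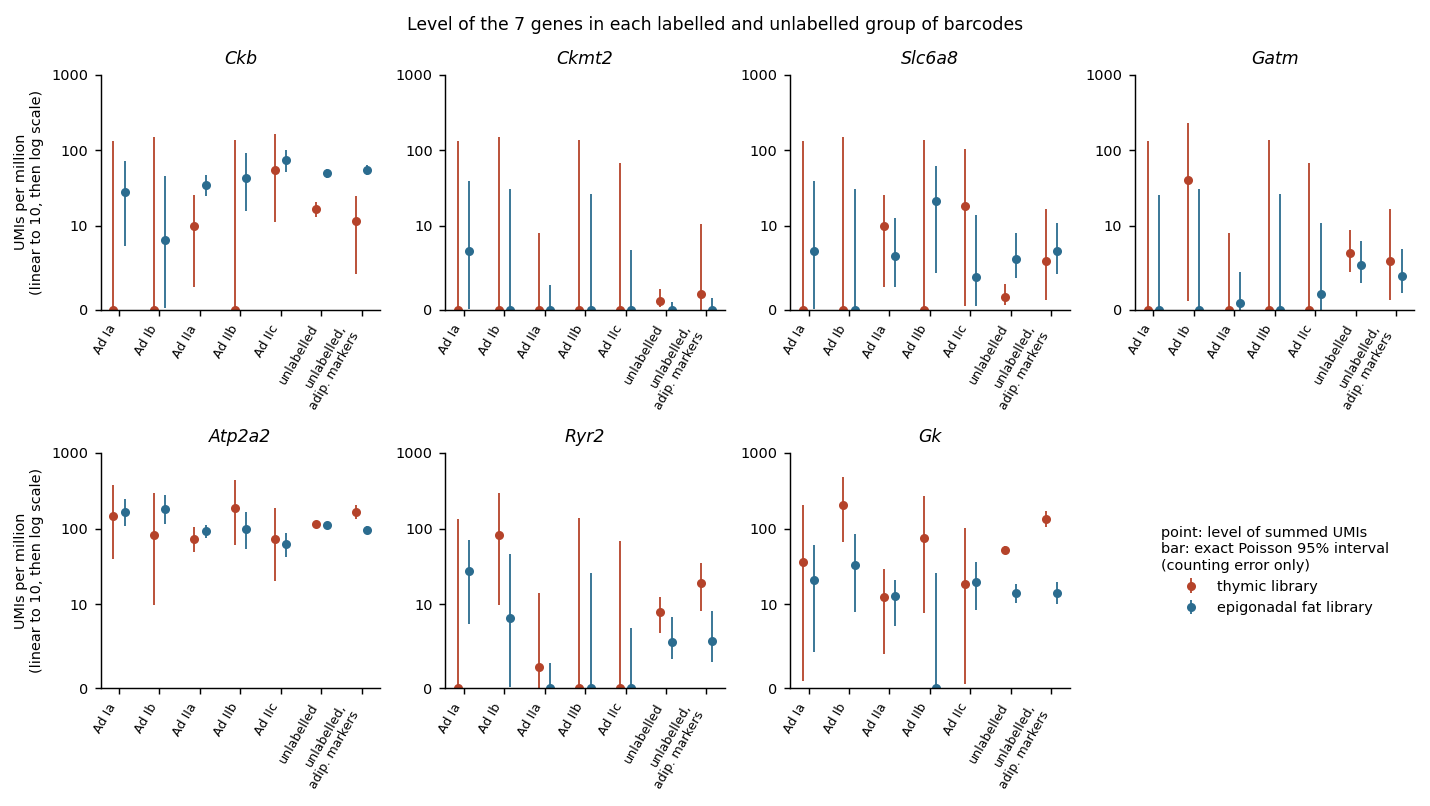
Level of each gene (CPM, vertical axis linear to 10 and log above) in the 5 labels, in all unlabelled barcodes and in unlabelled barcodes with adipocyte markers, with exact Poisson intervals. Gk points of the thymic library (red) lie above the epigonadal (blue) ones in Ad Ia, Ad Ib, Ad IIb and both unlabelled groups, Ckb points lie below them in every group, and Ckmt2 is at or near 0 throughout.

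Creatine kinase B was the member with the clearest deficit of RNA in the thymic library. Ckb had 0 UMIs in thymic Ad Ia, Ad Ib and Ad IIb, 4 in Ad IIa (9.96 CPM, interval 2.72 to 25.5) and 3 in Ad IIc (55.3 CPM, 11.4 to 162). Epigonadal Ad Ia held 4 Ckb UMIs (27.9 CPM), Ad Ib held 1 (8.32), Ad IIa 43 (34.8), Ad IIb 6 (42.6) and Ad IIc 38 (73.6). Epigonadal levels were thus highest in Ad IIc, and its interval (52.1 to 101) lay above that of Ad IIa (25.2 to 46.8). Summed over labels, thymic Ckb was at 13.1 CPM (5.26 to 27.0, 7 UMIs) and epigonadal Ckb at 42.6 CPM (34.4 to 52.3, 92 UMIs). In nuclei labelled Ad IIa, the log2 ratio of thymic over epigonadal, with 0.5 UMI added to each sum, was -1.65 (interval -3.74 to -0.34). With 5 UMIs added the ratio was -0.79. The 2-fold call was lost there and with a minimum of 50 UMIs. The adipocyte list was lower between the same nuclei: its 12 genes, all detected in both, summed to 18994 CPM in thymic and 27627 CPM in epigonadal Ad IIa, with Cidec at 19.9 and 564 CPM and Plin4 at 2.49 and 181 CPM, while Pparg was at 2371 and 2012 CPM. Their part in the Ckb ratio was not tested. In Ad IIc the thymic interval overlapped the epigonadal one. In Ad I, 0 thymic against 5 epigonadal UMIs left a difference undetectable at this depth, since a count of 0 allows up to 57.4 CPM in thymic Ad I.

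The other creatine members were close to the limit of detection. Ckmt2, the mitochondrial creatine kinase of muscle, had 0 UMIs in labelled thymic nuclei, which allows up to 5.61 CPM, and 1 UMI in labelled epigonadal nuclei. Gatm, the first enzyme of creatine synthesis, had 1 UMI in labelled thymic nuclei (in Ad Ib) and 2 in epigonadal ones. Slc6a8, the creatine transporter, had 5 UMIs in labelled thymic nuclei (9.35 CPM, 3.04 to 21.8), of which 4 were in Ad IIa, and 14 in epigonadal nuclei (6.49 CPM, 3.55 to 10.9). Its log2 ratio was 0.61 (-1.30 to 2.08), an interval that holds both a fall and a rise of more than 2-fold.

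Of the 8 other genes on the creatine list, 6 reached 10 UMIs over all labelled nuclei. Of these, 5 were at least 2-fold lower in the thymic library (20.2% over all genes) and 1 was higher (8.12%), with a median log2 ratio of -1.83 beside 0.02 for all genes with as many UMIs. In the epigonadal library, the 4 other creatine genes with 10 UMIs had a median of 2.37 in Ad IIc over Ad I, beside -0.40 for all genes. The part of the label mix in the ratios over all labelled nuclei was not tested. Gamt, which completes creatine synthesis, had 3 thymic and 49 epigonadal UMIs (-1.81, -4.34 to -0.39). The ATP/ADP carriers of the inner mitochondrial membrane were lower too, Slc25a5 at -2.18 (-2.85 to -1.62) and Slc25a4 at -1.85 (-2.59 to -1.24). Within Ad IIa, 4 of the 6 other creatine genes with 10 UMIs were lower (16.2% over all genes) and 1 was higher (5.44%), with a median of -1.67 (-1.20 with genes of 0 UMIs on 1 side held at 3 counts) beside -0.02 for all genes. The adipocyte list summed lower in thymic than in epigonadal Ad IIa, as given above for Ckb, and its part in these ratios was not tested. Slc25a5 had 0 UMIs in thymic Ad I against 23 in epigonadal Ad I. The exception was Alpl, the phosphatase, with 14 thymic and 12 epigonadal UMIs (2.23, 1.01 to 3.48). Of the 14 thymic Alpl UMIs, 8 were in Ad IIa and 5 in Ad IIb, the labels rich in endothelial markers, and 1 was in Ad I. Ckm, the muscle creatine kinase, and Ckmt1 had at most 1 UMI in the labelled nuclei of either library.

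**Figure D2:**
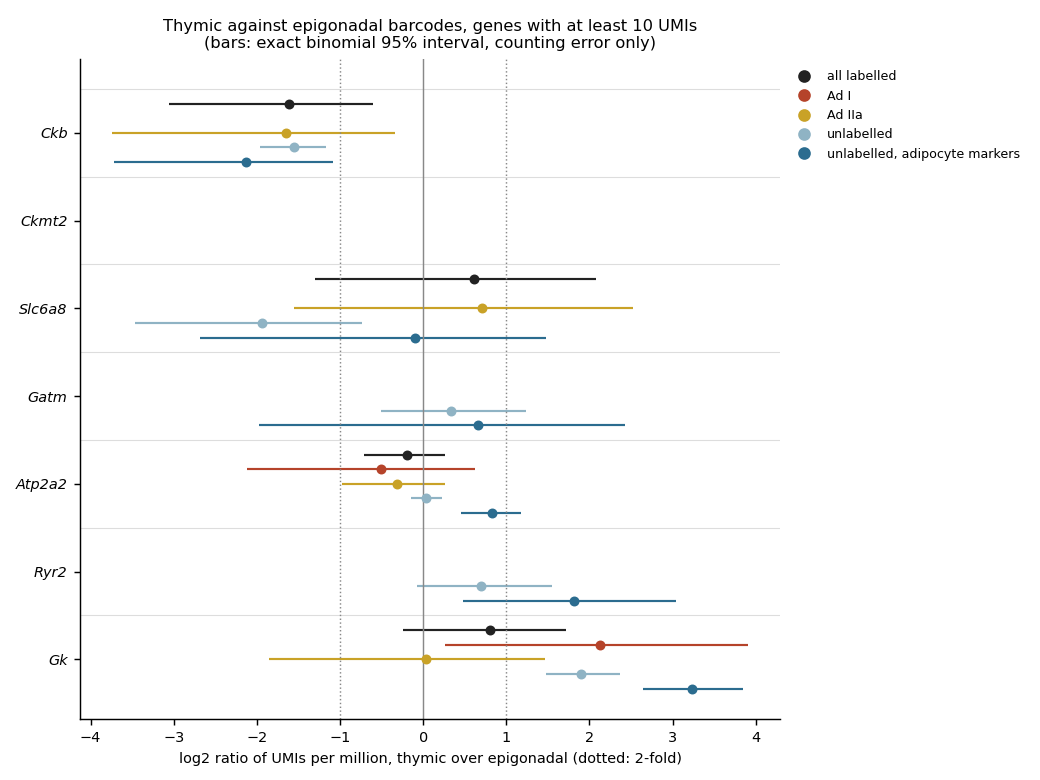
Log2 ratio of thymic over epigonadal level for each of the 7 genes in 5 groups of barcodes, shown where at least 10 UMIs were counted and neither side was 0, with exact binomial intervals. Every Ckb interval lies below 0, the Gk intervals lie above 0 in Ad I and in both unlabelled groups, and Ckmt2 has no point.

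The calcium pump had overlapping intervals in labelled nuclei of the libraries. Atp2a2 had 44 thymic UMIs (82.2 CPM, 59.8 to 110) and 205 epigonadal UMIs (82.4 to 109 CPM), a log2 ratio of -0.20 (-0.71 to 0.27). By label, thymic Atp2a2 was highest in Ad IIb (185 CPM, 5 UMIs) and Ad Ia (145 CPM, 4 UMIs), followed by Ad Ib (81.4 CPM, 2 UMIs), Ad IIc (73.7 CPM, 4 UMIs) and Ad IIa (72.2 CPM, 29 UMIs), and all these intervals overlapped. Epigonadal Atp2a2 was highest in Ad Ib (183 CPM) and Ad Ia (167 CPM), followed by Ad IIb (99.5 CPM), Ad IIa (91.3 CPM) and Ad IIc (62.0 CPM). In the epigonadal library Atp2a2 was thus higher in Ad I than in Ad IIa, with a log2 ratio of 0.94 (0.41 to 1.44). The same ratio in the thymus was 0.76 (-0.89 to 1.96) from 6 and 29 UMIs.

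Ryr2, the release channel known from heart muscle, had 7 of its 8 UMIs in labelled nuclei in Ad I. In the epigonadal library all 5 of its labelled UMIs were in Ad I (4 in Ad Ia, 1 in Ad Ib), with 0 in 590 Ad IIa nuclei and 0 in 658 Ad IIc nuclei. In the thymus 2 UMIs were in Ad Ib and 1 in Ad IIa. At these counts the thymic and epigonadal levels cannot be told apart. Cardiac muscle markers summed to 0 UMIs over 9 genes in thymic Ad I and to 3 UMIs in epigonadal Ad I. The skeletal and cardiac muscle genes Ryr1, Atp2a1, Sln and Pln had at most 3 UMIs each on either labelled side, and Ryr3 had 4 and 10.

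The other calcium genes went in both directions in Ad I. Of the 29 other genes on the calcium list, 18 reached 10 UMIs in Ad I, 5 were at least 2-fold higher in the thymic library (15.2% over all genes) and 4 lower (17.0%). Their median log2 ratio was 0.14 (0.31 with genes of 0 UMIs on 1 side held at 3 counts), beside 0.08 for all genes. Itpr2, an inositol trisphosphate receptor that releases calcium from the endoplasmic reticulum, was at 976 CPM in thymic Ad I (51 UMIs) and 178 CPM in epigonadal Ad I (47 UMIs), a log2 ratio of 2.45 (1.85 to 3.06). Itpr1 was at 727 and 190 CPM (1.95, 1.29 to 2.58), and Itpr3, the third receptor of the family, had 0 and 7 UMIs. Adra1a, the alpha-1A adrenergic receptor, which signals through inositol trisphosphate, was at 402 and 53.1 CPM (2.90, 1.88 to 4.01). Of 23 labelled thymic Adra1a UMIs, 21 were in Ad I. The brown-fat and T-cell lists were also higher in CPM in thymic than in epigonadal Ad I, as given below beside Gk. Their part in these ratios was not tested. In nuclei labelled Ad IIa, by contrast, Itpr2 was at 0.09 (-0.18 to 0.34) and Itpr1 at 0.05 (-0.20 to 0.28), and Adra1a had 1 UMI in either library. At the other end of the list in Ad I, the plasma membrane calcium pump Atp2b1 was at -2.45 (-8.36 to -0.46) from 1 thymic and 41 epigonadal UMIs. Over all labelled nuclei, 21 of the other calcium genes reached 10 UMIs, with 2 higher (8.12% over all genes), 1 lower (20.2% over all genes; Atp2a3, -1.56, -3.16 to -0.48) and a median of 0.21 beside 0.02. The difference between Ad I and Ad IIa was not tested.

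Glycerol kinase RNA had a higher level in thymic than in epigonadal Ad I nuclei, from 6 and 7 UMIs. The interval of this ratio held 0 under another scaling. Gk had 1 UMI in thymic Ad Ia (36.2 CPM), 5 in Ad Ib (203 CPM, 66.0 to 475), 5 in Ad IIa (12.5 CPM, 4.04 to 29.1), 2 in Ad IIb (74.0 CPM) and 1 in Ad IIc (18.4 CPM). Only Ad Ib and Ad IIa had intervals that did not overlap in this order. Epigonadal Ad Ia held 3 Gk UMIs (20.9 CPM), Ad Ib held 4 (33.3), Ad IIa 16 (12.9), Ad IIb 0 and Ad IIc 10 (19.4), and these intervals overlapped. In Ad I, 6 thymic UMIs from 4 of 84 nuclei (115 CPM) faced 7 epigonadal UMIs from 7 of 258 nuclei (26.5 CPM). The log2 ratio was 2.13 (0.27 to 3.91), and scaling by TMM factors moved all Ad I ratios by -0.34, which takes the lower bound below 0. In Ad IIa the ratio was 0.04 (-1.86 to 1.46), and over all labelled nuclei it was 0.80 (-0.24 to 1.72). With nuclei of at least 1000 UMIs, which were 9 of the 84 thymic ones, the Ad I call was lost. Over the unlabelled thymic barcodes, the Gk interval of thymic Ad I held equality. The brown-fat list of 8 genes summed to 2814 CPM in thymic Ad I and 394 CPM in epigonadal Ad I. Ppara was the largest at 1704 and 280 CPM. In thymic Ad I, Elovl3 had 0 UMIs, Cox7a1 had 1 and Dio2 had 4. Ucp1 had 5 UMIs in thymic Ad I and 0 in epigonadal Ad I. The T-cell list was also higher in CPM, at 689 CPM in thymic and 106 CPM in epigonadal Ad I. Relative to the T-cell level in the unlabelled barcodes of its own library, it was at 11.5% in thymic and 26.8% in epigonadal Ad I. The part of either list in the Gk ratio was not tested.

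Many of the other genes that handle glycerol were lower in the thymic library over all labelled nuclei. Of the 17 other genes on the glycerol list, 15 reached 10 UMIs over all labelled nuclei. Of these, 8 were at least 2-fold lower in the thymic library (20.2% over all genes) and 0 higher (8.12%), with a median log2 ratio of -1.10 beside 0.02 for all genes. In Ad IIa, 15 reached 10 UMIs, 8 were lower (16.2% over all genes) and 0 higher (5.44%), with a median of -1.16 beside -0.02. Of the adipocyte list, Adipoq (9.96 and 449 CPM) and Cidec (19.9 and 564 CPM) were lower between the same nuclei. Pparg was not lower, as given above for Ckb. The list as a whole summed lower, and its part in these ratios was not tested. In Ad I, 14 did, 3 were higher (15.2% over all genes) and 1 lower (17.0%), with a median of 0.45 beside 0.08 for all genes. Gpd1, which makes glycerol 3-phosphate from a glycolytic intermediate, was at 230 CPM in thymic and 98.5 CPM in epigonadal Ad I (1.25, 0.10 to 2.26). In Ad IIa it was at 14.9 and 86.5 CPM (-2.42, -4.01 to -1.36). Gpd2, its mitochondrial partner, was at 1.54 in Ad I (0.15 to 2.77) and -0.05 in Ad IIa (-0.78 to 0.59). The lipase Pnpla2 was the lowest of the list over all labelled nuclei, at -3.16 (-3.70 to -2.71), followed by Dgat2, which completes triglyceride synthesis, at -2.58 (-3.28 to -2.01). In Ad I they were at -0.78 (-2.12 to 0.20) and 0.94 (0.12 to 1.67). Scaling by TMM factors moved all Ad I ratios by -0.34, which takes the lower bounds of Gpd1, Gpd2 and Dgat2 in Ad I below 0. The difference between labels was not tested. The monoglyceride lipase Mgll was lowest in Ad I at -1.27 (-1.84 to -0.78). The glycerol channel Aqp7 had 131 thymic and 450 epigonadal UMIs (0.24, -0.06 to 0.52), and Gk5, a relative of Gk, had 8 and 47 (-0.47, -1.84 to 0.55).

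**Figure D3:**
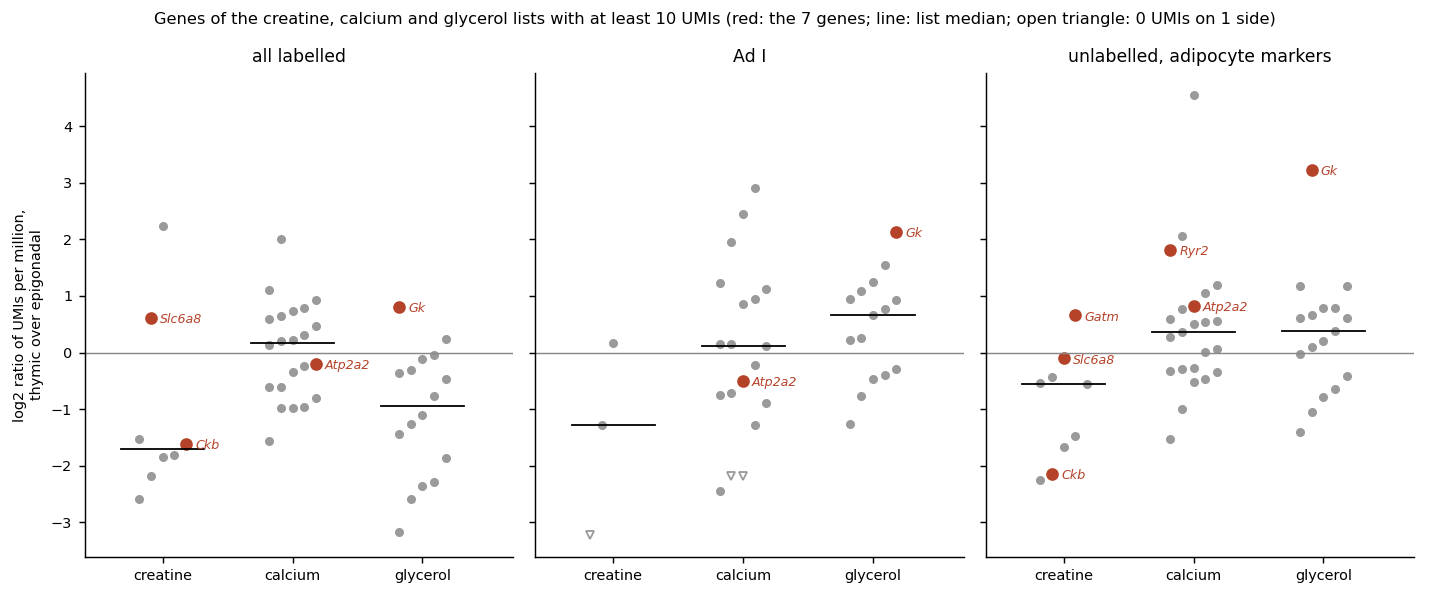
Log2 ratio of thymic over epigonadal level for the genes of the creatine, calcium and glycerol lists with at least 10 UMIs, in all labelled nuclei, Ad I nuclei and unlabelled barcodes with adipocyte markers. Gk is the highest gene of the glycerol list in all 3 panels, and the median of the glycerol list lies below 0 in all labelled nuclei and above 0 in the other panels.

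Most barcodes carried no label, and they held far more UMIs of the members than the labelled nuclei. The 22235 unlabelled thymic barcodes held 242 Gk UMIs and 527 Atp2a2 UMIs, but they were poor material: their median was 308 UMIs and 51.2% of their UMIs were mitochondrial, against 10.6% in the 3479 unlabelled epigonadal barcodes. Against the epigonadal ones, 6 of the 7 genes reached 10 UMIs. Of these, 1 (Gk) was at least 2-fold higher in the thymus, beside 11.1% of 14979 genes, and 2 (Ckb and Slc6a8) were lower, beside 22.4% of genes. Gk was at 52.6 and 14.0 CPM (1.90, 1.47 to 2.36), Ckb at 16.7 and 49.5 CPM (-1.56, -1.97 to -1.17) and Slc6a8 at 1.52 and 6.09 CPM (-1.93, -3.47 to -0.73). Atp2a2 was at 114 and 112 CPM. Gatm had 31 and 20 UMIs and Ryr2 42 and 21, with intervals that held equality.

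A part of the unlabelled barcodes carried adipocyte markers, taken as at least 3 of 12 adipocyte genes detected and more than of any other class. The 12 genes include Fabp4, Cd36 and Pparg, which were higher in thymic Ad IIa than in thymic Ad I. There were 1509 thymic (6.68% of all barcodes) and 2494 epigonadal (49.5%) barcodes of this kind, and whether these are like mixtures was not tested. Among them 6 of the 7 genes reached 10 UMIs, of which 2 (Gk and Ryr2) were at least 2-fold higher in the thymus, beside 13.6% of 12526 genes. Ckb was lower, beside 17.4% of genes. Thymic Gk was at 133 CPM (104 to 168, 69 UMIs) and epigonadal Gk at 14.1 CPM (9.98 to 19.4, 38 UMIs), a log2 ratio of 3.23 (2.65 to 3.85). A Gk UMI was found in 4.04% of these thymic barcodes (median 425 UMIs) and in 1.49% of the 1745 thymic barcodes with T-cell markers (median 746 UMIs). After each barcode was thinned to 500 UMIs the shares were 3.95% of 532 and 0.863% of 1274 barcodes, with shallower ones left out. In the epigonadal library the share was 1.24% (0.361% after thinning). Atp2a2 was at 168 and 94.98 CPM (0.83, 0.45 to 1.18), Ryr2 at 19.3 and 5.57 CPM from 10 and 15 UMIs (1.82, 0.48 to 3.04), and Ckb at 11.6 and 54.9 CPM (-2.14, -3.72 to -1.09). Slc6a8, with 3 and 19 UMIs, and Gatm, with 3 and 11, had intervals that held equality, and Ckmt2 had 1 and 0 UMIs.

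Adra1a, Itpr2 and Itpr1 were again higher in the thymic library. Adra1a was at 237 CPM in the thymic and 10.0 CPM in the epigonadal barcodes with adipocyte markers (4.54, 3.96 to 5.22), Itpr2 at 850 and 203 CPM (2.06, 1.88 to 2.25) and Itpr1 at 455 and 220 CPM (1.05, 0.83 to 1.27). Of 21 other calcium genes with 10 UMIs or more, 4 were higher and 2 lower, of 16 other glycerol genes 2 were higher and 2 lower, and of 6 other creatine genes 0 were higher and 3 lower, beside 13.6% and 17.4% over all genes. Lipe and Pnpla2 of the glycerol list are also among the markers that chose these barcodes. Gamt was the lowest creatine gene, at -2.24 (-5.63 to -0.64). Brown-fat markers summed to 2520 and 107 CPM, and Ucp1 had 101 and 2 UMIs. Mitochondrial RNA made up 38.7% of thymic and 10.9% of epigonadal UMIs in barcodes of this kind. Only 45 thymic barcodes were left when that share was held to at most 20%. Gk then had 3 thymic UMIs and its interval held 0 (2.25, -0.31 to 3.73), Ryr2 and Ckb had 0 thymic UMIs, and Atp2a2 was at 1.16 (0.13 to 1.94). Adra1a, with 9 thymic UMIs, was at 3.94 (2.61 to 5.04). In the 30 thymic barcodes with at least 2 Ucp1 UMIs, Gk and Atp2a2 had 2 UMIs each, Slc6a8 had 1 and the other members 0.

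Other cell classes among the unlabelled thymic barcodes held members as well. Atp2a2 was at 119 CPM in those with T-cell markers (148 UMIs). In 8 barcodes with mural markers, a class of smooth muscle and pericytes, Atp2a2 had 6 UMIs, all from 2 barcodes. Gatm had 4 UMIs in the 30 thymic barcodes with macrophage markers, against 3 in the 1509 with adipocyte markers. Gk was at 24.1 CPM (16.2 to 34.4) in those with T-cell markers and 53.3 CPM (44.6 to 63.2) in the 18542 with no class, both below the interval of those with adipocyte markers. In the 49 barcodes with B-cell markers it was at 132 CPM (42.7 to 307, 5 UMIs), an interval that holds the level in those with adipocyte markers.

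At a median of 1479 UMIs in thymic and 966 in epigonadal labelled nuclei, few nuclei could hold UMIs of more than 1 member. Of 365 labelled thymic nuclei, 308 had a UMI of 0 members, 51 of 1 member and 6 of 2 or more. Of 1564 epigonadal nuclei the numbers were 1275, 271 and 18. Across 12 groups of barcodes (5 labels and the unlabelled barcodes in each library), the genes most like each member by Pearson correlation of log2(CPM + 10) were listed among 9273 genes with at least 100 UMIs. For Ckb these were Flot1 (0.97), Rab3d (0.95) and Pigp (0.95), for Atp2a2 Zscan29 (0.93), Akap8l (0.93) and Vps41 (0.88), and for Gk Cep95 (0.92), Atf1 (0.90) and Elovl6 (0.88). The correlation of Ckb with Gk over these points was -0.71. Ckb had 0 UMIs in thymic Ad Ia, Ad Ib and Ad IIb, and Gk had at most 5 in each thymic label. At these counts the value does not show an opposite course. Points of 1 library share its depth and its free RNA. The other 4 members had 6 to 71 UMIs over the 12 groups, under the 100 UMIs required.

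In female thymus, none of the members with at least 50 fragments over the gene was past 1.5-fold between the authors' 2 adipocyte labels. The label thyAD I covered 146 nuclei (1646902 fragments) and thyAD II 140 nuclei (2189613 fragments). Labels and joint clusters were made from these same nuclei, which the counting intervals do not take into account. Over the gene and 2 kb on either side, 5 of the 7 genes had at least 50 fragments. Of these, 0 were at least 1.5-fold higher in thyAD I, beside 3.46% of 17897 genes, and 0 were lower, beside 5.32%. Atp2a2 had 165 fragments in thyAD I (100.2 per 1000000 fragments, FPM) and 190 in thyAD II (86.8 FPM), a log2 ratio of 0.21 (-0.10 to 0.52). Gk had 93 (56.5 FPM) and 97 (44.3 FPM), at 0.35 (-0.08 to 0.78). Ryr2 had 110 and 143 fragments (0.03), Ckb 51 and 73 (-0.10, -0.65 to 0.43) and Slc6a8 30 and 30 (0.41, -0.37 to 1.19). Gatm had 10 and 7 fragments and Ckmt2 10 and 15, too few for a call. For comparison, Ucp1 had 47 and 13 fragments (2.23, 1.36 to 3.28), of which 45 were in joint cluster 1 and 2 in joint cluster 3, the clusters that make up thyAD I. For the members the intervals held equality: cluster 1 over cluster 3 was at 0.32 for Gk (-0.34 to 1.06), -0.30 for Atp2a2 (-0.77 to 0.18) and -0.25 for Ckb (-1.10 to 0.68).

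**Figure D4:**
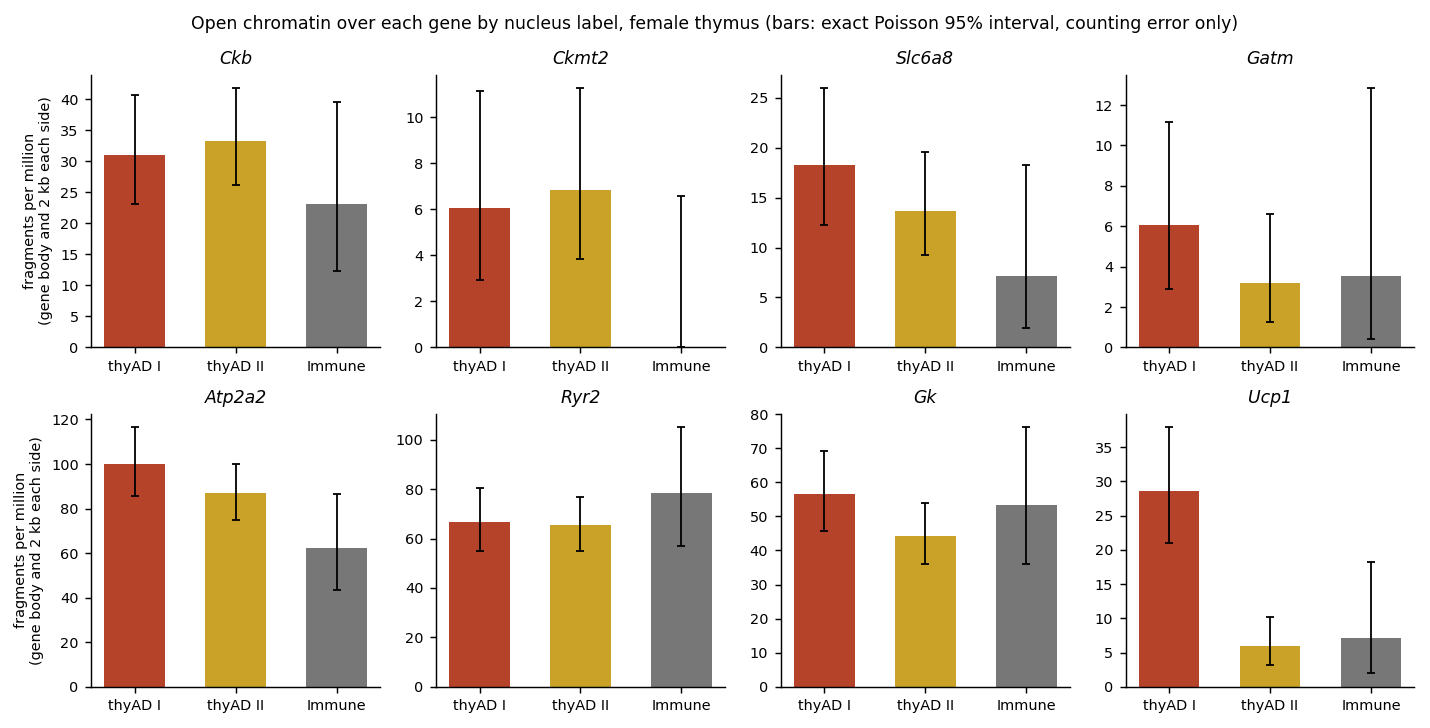
Chromatin fragments per 1000000 (FPM) over each gene and 2 kb on either side, by the authors' label, for the 7 genes and Ucp1, with exact Poisson intervals and a separate vertical axis for each gene. The thyAD I and thyAD II intervals overlap for all 7 genes and do not overlap for Ucp1.

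Per kilobase of that window, Ckb had the densest chromatin signal, at 4.43 FPM per kb in thyAD I, followed by Atp2a2 at 1.90, Slc6a8 at 1.36 and Gk at 0.716. Gatm was at 0.292, Ckmt2 at 0.220 and the long Ryr2 at 0.120. The short Ckb window is mostly flank and start. Immune nuclei (31 nuclei, 561387 fragments) had fewer Atp2a2 fragments than thyAD I (62.3 FPM, -0.67, -1.25 to -0.15) and an interval that held equality over Gk (53.4 FPM, -0.06, -0.72 to 0.53). Within 1 kb of the gene ends, Atp2a2 was at -0.14 (-0.87 to 0.50) over thyAD I. Over thyAD II, the intervals of all members with at least 50 fragments held equality. Among the genes of the lists that were past 1.5-fold in thyAD I, Adra1a had 257 and 205 fragments (0.74, 0.47 to 1.01) and Itpr2 477 and 402 (0.66, 0.46 to 0.85). Micu2, a regulator of mitochondrial calcium uptake, was lower with 31 and 66 fragments (-0.67, -1.34 to -0.04). They were the only genes past that fold among 26 with at least 50 fragments on the calcium list, and 0 were past it among 9 on the creatine and 17 on the glycerol list, beside 3.46% higher and 5.32% lower over all genes. Of the 16 other glycerol genes, without Gk, 7 had an interval above 0 and 1 below. The share of all genes with such intervals was not counted. The median log2 ratio of these 16 genes was 0.22, beside -0.007 for all genes. Adra1a had 39.2 FPM in Immune nuclei, against 156 in thyAD I and 93.6 in thyAD II.

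At the gene starts the members differed widely. Within 1 kb of the start, thyAD I and thyAD II together had 131 fragments at Gk, more than 88.9% of 27025 gene starts, 33 at Ckb (64.0%), 15 at Ryr2 (56.9%), 9 at Gatm (52.6%) and 1 at Ckmt2 (18.3%), beside a median of 6. The GC-box promoter of Gk printed above was thus open in both labels, with 53 fragments within 1 kb in thyAD I and 78 in thyAD II (-0.14, -0.68 to 0.38). It was open in Immune nuclei as well, with 29 fragments (51.7 FPM, against 32.2 in thyAD I and 35.6 in thyAD II). Immune over thyAD I was at 0.69 (-0.02 to 1.36). Gm14766 and 5430427O19Rik lie within 2 kb of Gk, and Gm32261 within 2 kb of Slc6a8, so these fragments cannot be given to the members alone. The TATA-box promoter of Ckb had 8 fragments in thyAD I and 25 in thyAD II (-1.17, -2.59 to -0.04), under the minimum of 50 fragments for a call, and this interval overlaps that of the whole window. At Ckmt2 the CpG-poor promoter had 1 fragment in 286 nuclei.

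**Figure D5:**
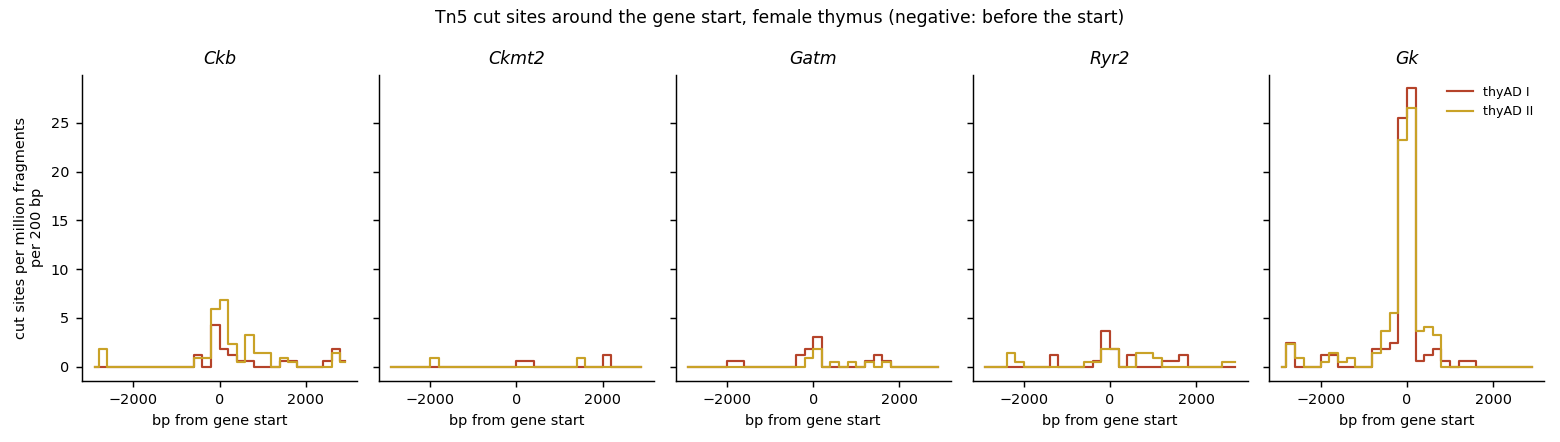
Tn5 cut sites per 1000000 fragments in bins of 200 bp around the start of the 5 genes with a known start, by distance from the start, for thyAD I and thyAD II. Gk has a narrow peak in both labels (28.5 in thyAD I and 26.5 in thyAD II in the bin after the start), Ckb has a lower one, and Ckmt2 has none.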

How the data were processed

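The members and the lists were chosen with earlier results of these data known. Raw UMI counts per gene and barcode, the authors' labels and the percent of mitochondrial UMIs per nucleus were used as deposited. Labelled nuclei are all called singlets by scDblFinder in the deposited tables, and no doublet caller was run on unlabelled barcodes. Cell Ranger ARC 2.0.2, Seurat 5.1.0 and the build mm10 are named in the submitters' processing notes. How introns were treated in the counts is a setting not given in the sources used. The RNA matrices were made with Cell Ranger and the fragments with Cell Ranger ARC, per the file headers, and each deposited fragment line was counted once. The 6-month nucleus table ended inside row 318, so 317 nuclei were used, and the RNA of that library was not analysed here.

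UMIs were summed per label and scaled per 1000000 UMIs of nuclear-encoded genes (CPM). Log2 ratios had 0.5 added to each sum. Sums had exact Poisson and ratios exact binomial (Clopper-Pearson) intervals. Only the ratio intervals were checked, on simulated independent Poisson sums without clustering of UMIs in nuclei. A count of 0 allows 3 counts. Calls needed 10 UMIs or 50 fragments over both sides and 2-fold or 1.5-fold, and no test between groups was run. Named genes were the members, fixed paralogs and partners (Ckm, Ckmt1, Gamt, Alpl, Atp2a1, Atp2a3, Ryr1, Ryr3, Itpr1, Itpr2, Itpr3, Sln, Pln, Gk5, Gpd1, Gpd2, Aqp7 and Ucp1) and otherwise the 2 highest and 2 lowest of each list. Other genes named beside a result were chosen after their values were seen. One gene that this rule names is not reported here. Chromatin fragments overlapping a gene and 2 kb on either side were scaled per 1000000 fragments of the group (FPM). Gene positions and promoters came from RefSeq tables of GRCm38.p6. Alternatives changed the pseudocount, the minimum, the nuclei, the scaling (TMM factors of edgeR 4.0.16), free RNA and the chromatin window. Python 3.11.15, scipy 1.17.1 and R 4.3.3 were used.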

Additional observations from a re-analysis of the deposited data

Results flagged for a closer look

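Gpd1, the cytosolic glycerol 3-phosphate dehydrogenase, moved in opposite directions in the 2 labels compared between the libraries. Its log2 ratio of thymic over epigonadal was 1.25 in Ad I and -2.42 in nuclei labelled Ad IIa, and the counting intervals lay on opposite sides of 0. Scaling by TMM factors moved all Ad I ratios by -0.34, which takes the lower bound of Gpd1 in Ad I below 0. With 1 library per group the difference was not tested. Several adipocyte markers also were lower in thymic than in epigonadal Ad IIa, with Adipoq at 9.96 and 449 CPM, Cidec at 19.9 and 564 CPM, Plin4 at 2.49 and 181 CPM and Plin1 at 9.96 and 97.0 CPM. Pparg was at 2371 and 2012 CPM and Cd36 at 6125 and 6125 CPM, and the 12 genes of the list summed to 18994 and 27627 CPM. Their part in the Gpd1 ratio was not tested.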

How the results depend on the processing

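No paired analysis was possible because each group is 1 library. Of 135 single-gene ratios under an alternative, 129 stayed within the interval of the reported ratio and 0 of the called ones changed sign. The 6 others were Slc6a8, Gatm, Ryr2 and Gk in unlabelled barcodes with adipocyte markers held to at most 20% mitochondrial UMIs, and Ckb and Gk chromatin in the 1 kb around the start. Alternatives that changed only the minimum of counts, and the limit of 3000 fragments, repeated the reported ratio. Those ratios count among the 129 but could not have moved. Counts of members past 2-fold (1.5-fold in chromatin) moved by more than 1.5 times in 13 of 68 cases. Over all labelled nuclei the 0 higher became 1 with equal weight per nucleus, 2 with a pseudocount of 5 and 2 with no minimum. In Ad I the 1 higher became 0 with nuclei of at least 1000 UMIs, 0 with a minimum of 50 UMIs and 3 with no minimum, where the 0 lower became 1. In Ad IIa the 1 lower became 0 with a minimum of 50 UMIs and 0 with a pseudocount of 5, where the 0 higher became 1, or 2 with no minimum. In unlabelled barcodes with adipocyte markers the 2 higher became 3 with at least 4 markers, 3 with a pseudocount of 5 and 4 with at most 20% mitochondrial UMIs, an alternative chosen after seeing the data, as were the other 4 for these barcodes. In chromatin the 0 higher became 1 with no minimum, and nuclei of at least 3000 fragments were all nuclei. Across alternatives Gk in Ad I lay between 1.73 and 2.59 and Ckb over all labelled nuclei between -1.76 and -1.003. TMM scaling moved all labelled ratios by -0.15 and Ad IIa ratios by -0.06 on the log2 scale. Depth limits the rest: thymic Ad I held 52241 UMIs, so a count of 0 there allows up to 57.4 CPM, and genes below that level cannot be told from 0.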
